A study of Mus musculus with 12 samples.

Results

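The GATA2, TAL1 and LMO2 stem factor genes are 10 genes: Gata2, Tal1, Lyl1, Lmo2, Lmo4, Ldb1, the E-protein genes Tcf3, Tcf4 and Tcf12, and Hhex. Their members in ATAC-seq peak lists were taken as every region whose overlapping or nearest protein-coding gene within 50 kb was one of the 10. The rule found 16 regions of 16028 in all, at least 1 for each gene. ATAC-seq reads chromatin accessibility from where a transposase can insert into DNA. The cells were murine ER-Hoxa9-Lys-GFP cells of strain C57BL/6, cultured in vitro in medium with SCF, and every group carried the estrogen receptor-Hoxa9 fusion, which depends on estradiol (E2), and the lysozyme GFP reporter. Of the 12 libraries, 2 made up each of 6 groups, with a peak list for each group rather than each library. The groups were continuous E2, 24 h without E2 followed by 96 h with it, 40 h followed by 80 h, 56 h followed by 64 h, 72 h followed by 48 h, and 120 h without E2. The lists named below by 24, 40, 56 and 72 h are therefore all from cells that had E2 back, and a longer withdrawal always came with a shorter add-back. Their order is that of withdrawal length and not a course in time.

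Each list gave the start and end of its peaks and no score, count or depth, so a region was either called or not called in a list, and the number of bases called was its only size. After cleaning there were 13165 peaks for continuous E2 and 11465, 9940, 8989, 9581 and 7987 for the others, in the order of withdrawal. There were no replicate values, so no difference between lists could be set against replicate error. In bulk chromatin, fewer cells with an open region and less opening per cell cannot be told apart.

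GATA2 is a zinc-finger factor of blood stem and progenitor cells, and TAL1 is a basic helix-loop-helix factor that binds E-box DNA as a dimer with an E protein, the products of Tcf3, Tcf4 and Tcf12. LMO2 binds no DNA itself and bridges TAL1 and a GATA factor, while LDB1 binds LMO2 and can join such complexes at distant sites. LYL1 is a close relative of TAL1, LMO4 is another LIM-only protein that binds LDB1, and HHEX is a homeodomain factor of early blood and endothelial cells. GATA2, TAL1 and LMO2 are active together in blood stem cells and early progenitors, and GATA2 levels are low in mature granulocytes.

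RefSeq promoter windows (GRCm38.p6, 250 bases before to 50 bases after a start) were found for 8 of the 10 genes, 16 windows in all; Lmo2 and Tcf4 had none. The 7 windows below are examples in which the called regions change or hold steady over or beside them. The same holds for other windows of Lmo4, Ldb1 and Tcf12, which are not shown. The 7 are given 5′ to 3′ on the strand of the gene. Capitals mark an E-box (CANNTG), a GATA site (GATAA) or an ETS site (CCGGAAG), each searched on both strands.
Tal1 upstream start, chr4:115056176-115056475, plus strand: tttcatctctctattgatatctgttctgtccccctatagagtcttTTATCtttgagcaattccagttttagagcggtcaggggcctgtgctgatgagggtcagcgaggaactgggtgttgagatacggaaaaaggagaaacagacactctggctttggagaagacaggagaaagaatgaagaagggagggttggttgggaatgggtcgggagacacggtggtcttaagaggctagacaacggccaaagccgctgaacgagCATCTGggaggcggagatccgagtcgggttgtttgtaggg
Tal1 downstream start, chr4:115057561-115057860, plus strand: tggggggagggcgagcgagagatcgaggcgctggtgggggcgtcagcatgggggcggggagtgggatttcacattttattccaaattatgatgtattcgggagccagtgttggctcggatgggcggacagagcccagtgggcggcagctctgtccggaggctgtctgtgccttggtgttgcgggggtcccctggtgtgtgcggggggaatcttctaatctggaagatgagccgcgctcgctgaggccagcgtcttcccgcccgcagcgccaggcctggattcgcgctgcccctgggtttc
Lyl1, chr8:84701207-84701506, plus strand: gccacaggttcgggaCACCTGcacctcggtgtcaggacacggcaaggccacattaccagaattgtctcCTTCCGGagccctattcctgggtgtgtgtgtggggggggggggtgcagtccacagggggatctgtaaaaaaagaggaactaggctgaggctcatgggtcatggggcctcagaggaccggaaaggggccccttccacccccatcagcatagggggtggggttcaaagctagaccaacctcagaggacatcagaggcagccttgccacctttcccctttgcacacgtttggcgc
Lmo4 upstream start, chr3:144205206-144205505, minus strand: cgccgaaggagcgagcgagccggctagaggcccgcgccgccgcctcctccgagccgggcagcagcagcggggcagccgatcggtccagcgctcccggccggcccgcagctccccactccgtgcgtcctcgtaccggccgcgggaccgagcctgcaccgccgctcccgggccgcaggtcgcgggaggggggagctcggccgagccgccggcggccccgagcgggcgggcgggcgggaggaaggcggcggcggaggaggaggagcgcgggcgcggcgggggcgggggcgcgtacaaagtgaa
Ldb1 upstream start, chr19:46045262-46045561, minus strand: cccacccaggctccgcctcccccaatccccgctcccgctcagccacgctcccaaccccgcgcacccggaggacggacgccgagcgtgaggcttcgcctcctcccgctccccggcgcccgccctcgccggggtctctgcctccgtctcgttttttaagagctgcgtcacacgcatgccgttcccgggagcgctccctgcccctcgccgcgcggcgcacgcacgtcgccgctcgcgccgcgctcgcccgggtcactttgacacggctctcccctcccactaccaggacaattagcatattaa
Tcf3, chr10:80433586-80433885, minus strand: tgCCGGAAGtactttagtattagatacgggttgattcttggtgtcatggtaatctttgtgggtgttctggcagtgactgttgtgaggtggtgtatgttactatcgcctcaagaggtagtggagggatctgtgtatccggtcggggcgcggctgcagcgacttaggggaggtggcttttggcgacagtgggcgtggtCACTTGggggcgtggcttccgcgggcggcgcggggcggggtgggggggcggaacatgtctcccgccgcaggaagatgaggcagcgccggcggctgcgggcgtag
Hhex, chr19:37434591-37434890, plus strand: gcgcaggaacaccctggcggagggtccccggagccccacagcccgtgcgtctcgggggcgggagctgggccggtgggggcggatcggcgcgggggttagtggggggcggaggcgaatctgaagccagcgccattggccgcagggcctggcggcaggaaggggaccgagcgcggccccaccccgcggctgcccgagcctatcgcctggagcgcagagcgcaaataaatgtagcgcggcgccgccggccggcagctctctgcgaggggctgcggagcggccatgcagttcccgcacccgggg

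Regions called in continuous E2 but not at 120 h are termed lost, the reverse gained, and those called at both end points kept. Of the 16 regions, 9 were lost, 5 were kept, 0 were gained and 2 were called at neither end point. Tal1, Lmo2, Lmo4 and Tcf3 had lost regions alone, and none of these 4 genes had a called region at 120 h. Ldb1, Lyl1 and Hhex had kept regions alone, Tcf4 had 1 of each kind, and Tcf12 had 1 lost region and 1 called in a middle list only. Gata2 had no called region at either end point. Regions of neither end point were 8.71% of all regions. The 4 regions called in all 6 lists lay at Ldb1, Tcf4 and Hhex, against 32.8% of all regions. Of the 16, 7 lay within 1 kb of the outer start or end coordinate of a gene, termed a gene boundary, as did 49.6% of all regions.

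**Figure D1:**
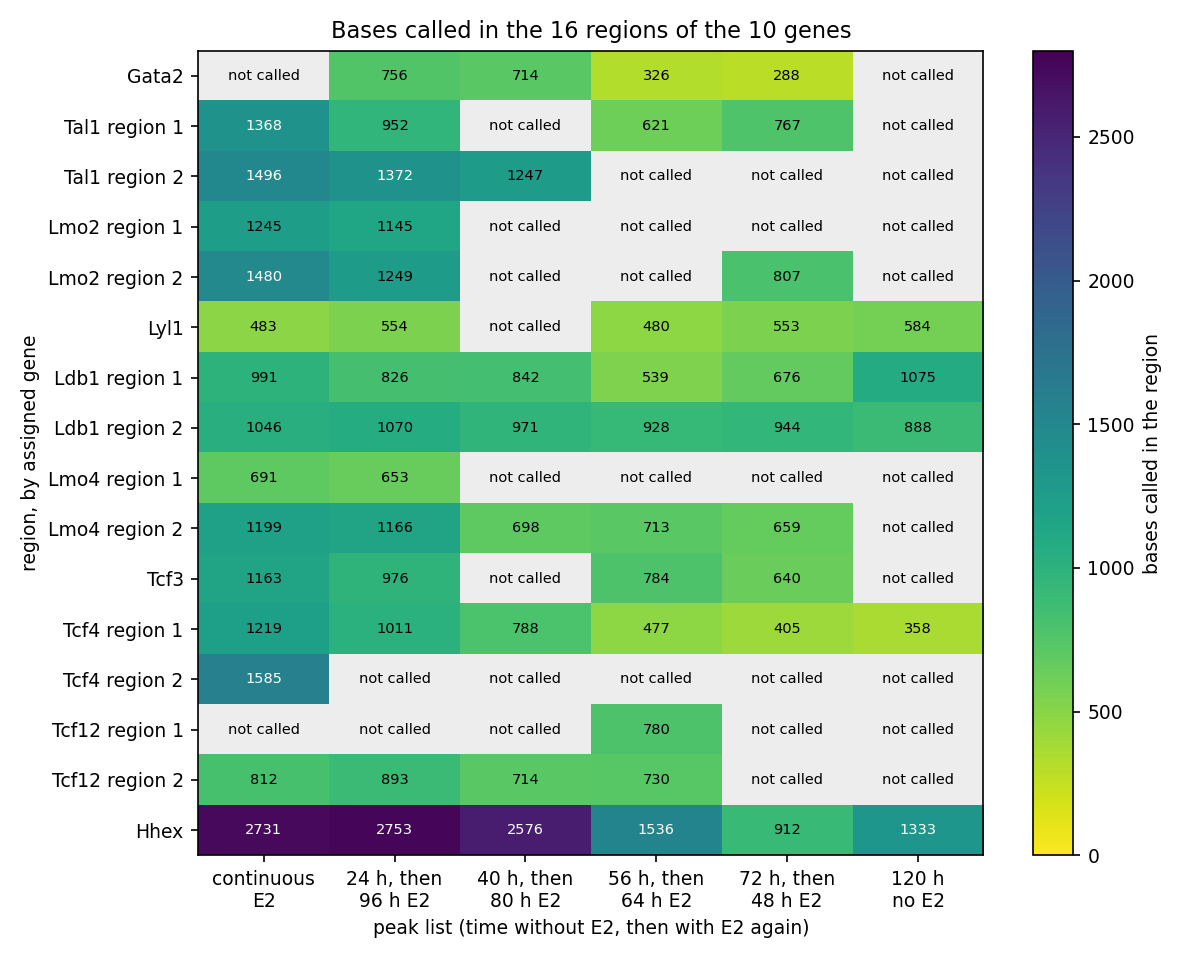
Bases called in each of the 16 regions (rows, by assigned gene) in each of the 6 peak lists (columns); the colour and the printed number give the bases, and grey cells were not called. The column of 120 h without E2 holds 5 called regions, at Lyl1, Ldb1, Tcf4 and Hhex, against 14 in continuous E2.

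Among the DNA-binding factors, Gata2 stood apart by the lists that called its region. Its only region lay 27340 bases upstream of the gene (chromosome 6, 88165796 to 88166551), outside any protein-coding gene, and its nearest annotated gene of any kind was the long non-coding RNA gene Gm38708. It was not called in continuous E2, was called over 756 bases at 24 h, 714 at 40 h, 326 at 56 h and 288 at 72 h, and was not called at 120 h. The region was thus seen in the 4 add-back lists alone. This pattern of calls was found in 0.724% of all regions and in 1 of the 16. The region was also narrower in the lists of longer withdrawal. The median called region of the same 4 lists had 769, 697, 604 and 596 bases in that order, and the part of such list-wide narrowing was not tested. No peak of any list overlapped the Gata2 gene or its 2 promoter windows, which have GC contents of 69.3% and 73.7%.

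Regions between Gata2 and the genes downstream of it were assigned to those genes by the nearest-gene rule. A region 22029 bases past the end of Gata2 was nearest to Dnajb8 and was called over 694 bases in continuous E2 and 486 at 24 h, and in no later list. Another, 47023 bases past the end and nearest to Eefsec, was called over 427 bases in continuous E2 alone. Both were lost regions, so the wider neighbourhood of Gata2 had regions in continuous E2 even though none was assigned to the gene.

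Tal1 had 2 regions, both inside the gene on chromosome 4 and both lost. The first (115056562 to 115057944) began past the upstream start, ran across the downstream start and was called over 1368 bases in continuous E2, 952 at 24 h, 0 at 40 h, 621 at 56 h, 767 at 72 h and 0 at 120 h. It was thus missing at 40 and 120 h and called in the lists on either side of 40 h. In continuous E2 its peak ran from 115056577 to 115057944 and covered all 300 bases of the downstream promoter window. At 24 h the peak ended at 115057550, before that window begins at 115057561, and the peaks of 56 and 72 h ended at 115057322 and 115057328. The upstream window was covered in none of the 6 lists. It holds a GATA site on the other strand, read as TTATC, and the E-box CATCTG just after the start. The region also overlaps the long non-coding RNA gene Gm33786.

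The second Tal1 region (115062565 to 115064064) was centred 6888 bases downstream of the upstream start. It was called over 1496 bases in continuous E2, 1372 at 24 h and 1247 at 40 h, and not at 56, 72 or 120 h. It therefore switched off once along the order of withdrawal, while the first region did not. Another region of the locus, 7789 bases upstream of Tal1 but 4601 bases from Stil and so assigned to Stil, was called over 834 bases in continuous E2 alone.

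Lyl1, unlike Tal1, was called at both end points. Its 1 region (chromosome 8, 84701251 to 84701845) spans the gene start and was called over 483 bases in continuous E2, 554 at 24 h, 480 at 56 h, 553 at 72 h and 584 at 120 h, and was not called at 40 h. It was the narrowest of the 14 member regions of continuous E2 and the only kept member region outside chromosomes 18 and 19. Its peaks covered between 176 and 256 bases of the promoter window in the 5 lists that called it. That window holds CACCTG and the ETS site CTTCCGG.

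**Figure D2:**
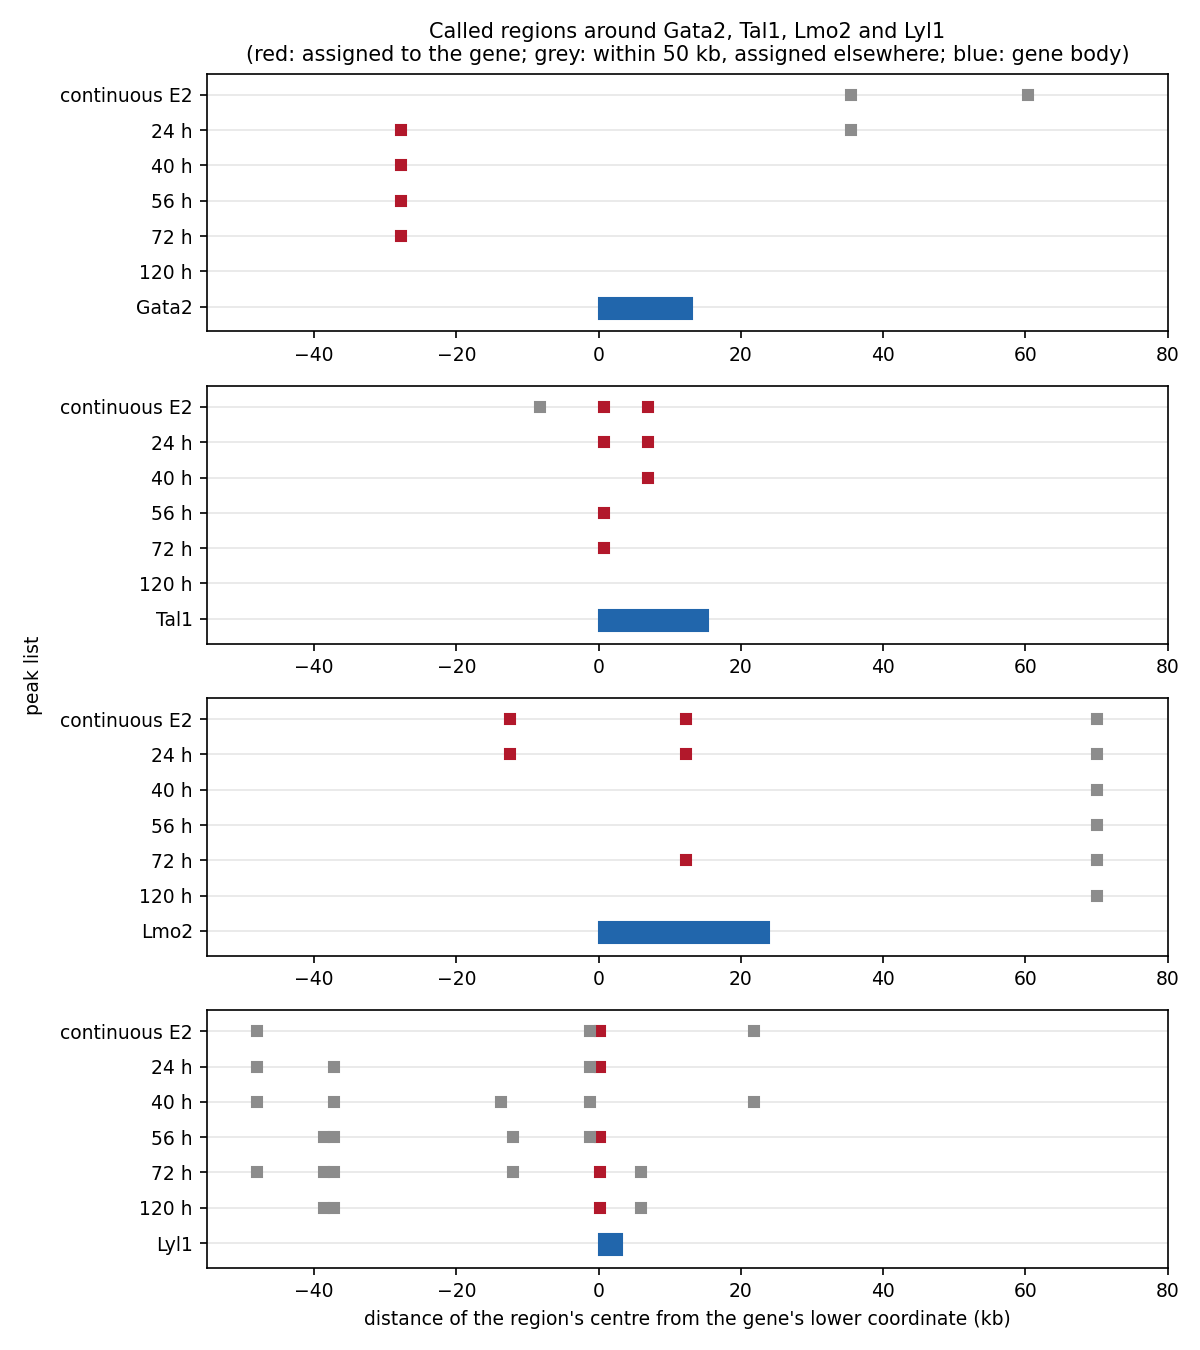
Called regions around Gata2, Tal1, Lmo2 and Lyl1: each square is a region called in that list (rows), placed at the distance of its centre from the lower coordinate of the gene (kb), in red where assigned to the gene and in grey where within 50 kb but assigned to another gene; the blue bar is the gene body. Red squares are present at 120 h for Lyl1 alone, and the Gata2 region appears in the 4 add-back lists only.

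Of the bridging proteins, the LIM-only genes lost their regions and Ldb1 kept both of its own. Lmo2 had a region 11827 bases below its lower coordinate (chromosome 2, 103944832 to 103946076), called over 1245 bases in continuous E2 and 1145 at 24 h and in no later list. The region inside the gene (103969328 to 103970941) was called over 1480 bases in continuous E2, 1249 at 24 h and 807 at 72 h, and not at 40, 56 or 120 h. At 40 and 56 h no region of Lmo2 was called at all. The inner region also overlaps the long non-coding RNA gene Gm38515, and the outer one lies closer to another, Gm39896, than to Lmo2.

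The Lmo4 region over its upstream start (chromosome 3, 144204801 to 144206022) was called over 1199 bases in continuous E2, 1166 at 24 h, 698 at 40 h, 713 at 56 h and 659 at 72 h, and was missing at 120 h alone. Its peaks covered the whole upstream promoter window in all 5 lists that called it; that window has 52 CpG dinucleotides and a GC content of 81.3%, against medians of 13 and 56.3% over all windows. The other Lmo4 region (144201943 to 144202636), over the downstream starts, was called over 691 bases in continuous E2 and 653 at 24 h only. The starts of Lmo4 were thus missing from different sets of lists. A further region 52743 bases from Lmo4, just past the assignment limit and with no nearer protein-coding gene, was called over 468 bases in continuous E2 alone.

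Ldb1 was called at both of its regions in all 6 lists. The one over its upstream start (chromosome 19, 46044828 to 46045898) had 1046 bases in continuous E2, 1070 at 24 h, 971 at 40 h, 928 at 56 h, 944 at 72 h and 888 at 120 h. The one over a downstream start (46039063 to 46040297) had 991, 826, 842, 539, 676 and 1075 bases in the same order. The promoter windows at these 2 starts were fully covered in every list, while the most downstream of the 3 Ldb1 windows was covered in none. Widths here come from merged rows: each deposited list held 2 or 3 overlapping rows for each Ldb1 region, and the narrowest row of the downstream region was 534 bases in continuous E2 and 427 at 120 h, so the direction of its width change depends on the merging.

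The E-protein genes differed from each other. Tcf3 had 1 region, at its start (chromosome 10, 80433176 to 80434338), called over 1163 bases in continuous E2, 976 at 24 h, 784 at 56 h and 640 at 72 h, and missing at 40 and 120 h. It followed the same pattern of calls as the first Tal1 region. The Tcf3 promoter window holds CACTTG and the ETS site CCGGAAG and was covered over 275 to 300 bases in the 4 lists that called the region.

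Tcf4 had a kept region close to its lower gene coordinate (chromosome 18, 69344070 to 69345302), with 1219 bases in continuous E2, 1011 at 24 h, 788 at 40 h, 477 at 56 h, 405 at 72 h and 358 at 120 h. It was narrower in each list than in the one before. Inside the gene a second region (69575181 to 69576765) was called over 1585 bases in continuous E2 and in no other list. That made it the only member region confined to continuous E2, a pattern of 12.3% of all regions, although it was wider there than 96.5% of the continuous-E2 regions. Its width was merged from 3 overlapping rows, the narrowest of 1115 bases.

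Tcf12 had a region 20876 bases upstream of the gene (chromosome 9, 72132769 to 72133723) called over 812 bases in continuous E2, 893 at 24 h, 714 at 40 h and 730 at 56 h, and not at 72 or 120 h. The region at its start (72111324 to 72112103) was called over 780 bases at 56 h alone. The start windows of Tcf12 have 41 and 45 CpG dinucleotides, so a start rich in CpG was called in 1 list of 6 here and in all 6 at Ldb1.

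Hhex had 1 region, over its start (chromosome 19, 37434036 to 37436868), and it was the widest of all 16. It had 2731 bases in continuous E2, 2753 at 24 h, 2576 at 40 h, 1536 at 56 h, 912 at 72 h and 1333 at 120 h. It was called throughout, and at 56 h and later its peaks were at most 1536 bases wide against at least 2576 before. In continuous E2 it was wider than 99.9% of all regions. With the narrowest of the overlapping rows in place of the merged peak, the widths were 2665, 2569, 2393, 1409, 644 and 853 bases. The promoter window of Hhex was fully covered in every list.

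**Figure D3:**
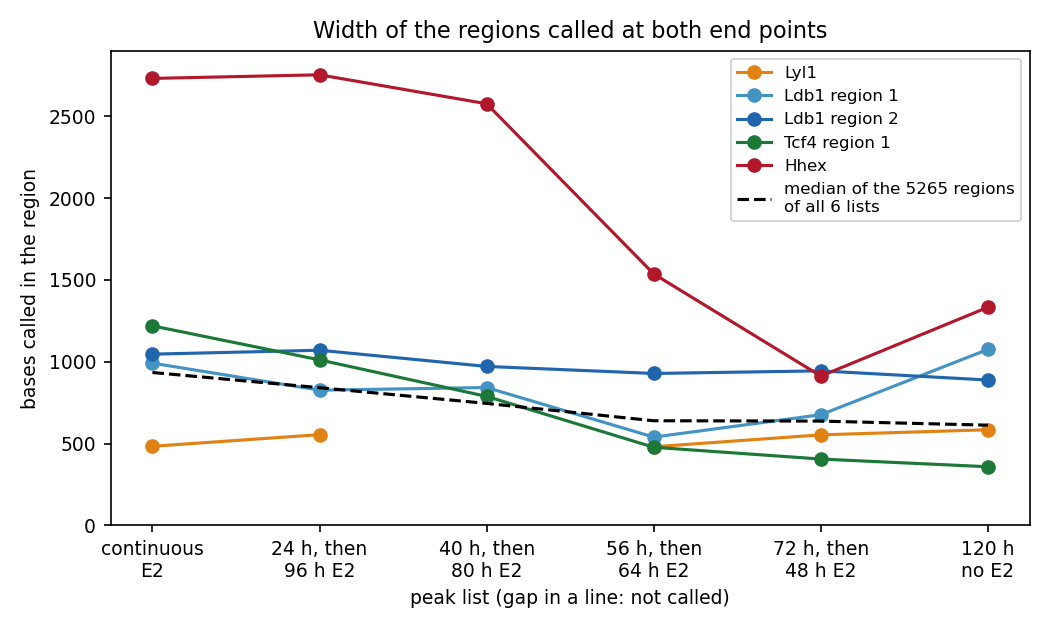
Bases called in the 5 member regions called at both end points, across the 6 lists, with the median of the 5265 regions of all 6 lists as a dashed line; a gap in a line marks a list without a call. The Hhex region goes from 2731 to 1333 bases and that of Tcf4 from 1219 to 358, while the upstream Ldb1 region stays between 888 and 1070.

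Set against all regions, the kept members spread widely in how much they narrowed. The width at 120 h as a percentage of that in continuous E2 was 29.4% for Tcf4, 48.8% for Hhex, 84.9% and 108% for the upstream and downstream starts of Ldb1, and 121% for Lyl1. The median over the 5265 regions of all lists was 67.0%, and over those on chromosomes 18 and 19 it was 63.7%. Only 0.741% of the regions of all lists had a lower value than that of Tcf4, and 12.1% had a lower one than Hhex, while 85.4% and 99.0% had a lower one than the upstream and downstream Ldb1 regions and 99.6% a lower one than Lyl1. Lyl1 was not called at 40 h and so is not itself among those 5265 regions, which makes its rank one against an unlike set. The value was thus below the median for 2 of the 5 kept members and above it for 3. With the narrowest rows the values of Tcf4 and Hhex were 36.6% and 32.0%, and those of Ldb1 69.8% and 80.0%. List-wide narrowing moved with these widths, and its part in them was not tested.

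Of the 14 member regions called in continuous E2, 9 were lost, which is 64.3% (95% Wilson interval 38.8 to 83.7, counting error over regions only), against 50.6% of all continuous-E2 regions. The interval includes the background, so over the 14 regions together the share lost is not distinguishable from that of all regions at this number of regions. At gene boundaries 3 of 6 were lost against 29.6% of all such regions, and away from them 6 of 8 against 73.8%. Boundaries are the outer ends of a gene, so regions over starts further inside it counted as away. The 2 kept regions away from boundaries were both of this kind, at Ldb1, as was the lost downstream region of Lmo4. Of the 5 regions called at 120 h, 0 were gained (upper Wilson bound 43.4%), against 18.4% of all regions called there. Chromosomes 18 and 19, which carry Tcf4, Ldb1 and Hhex, held 4 of the 5 kept regions. On the other chromosomes 8 of 9 member regions were lost (88.9%, interval 56.5 to 98.0), and the 50.8% of all regions there lay below that interval. On chromosomes 18 and 19 it was 1 of 5 (interval 3.62 to 62.4), against 48.5%. The repeated rows of these chromosomes move with this split, and their part in it was not tested.

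The number of member regions called was 14 in continuous E2, 14 at 24 h, 8 at 40 h, 11 at 56 h, 10 at 72 h and 5 at 120 h of the 16. All regions were called in 82.1%, 71.4%, 61.9%, 55.9%, 59.5% and 49.7% in the same order. Each of the 6 background shares lay inside the Wilson interval of the members, the widest gap being at 120 h (14.2 to 55.6 against 49.7%). By gene, all 10 had a called region at 24 h, 7 at 40 h and 4 at 120 h.

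**Figure D4:**
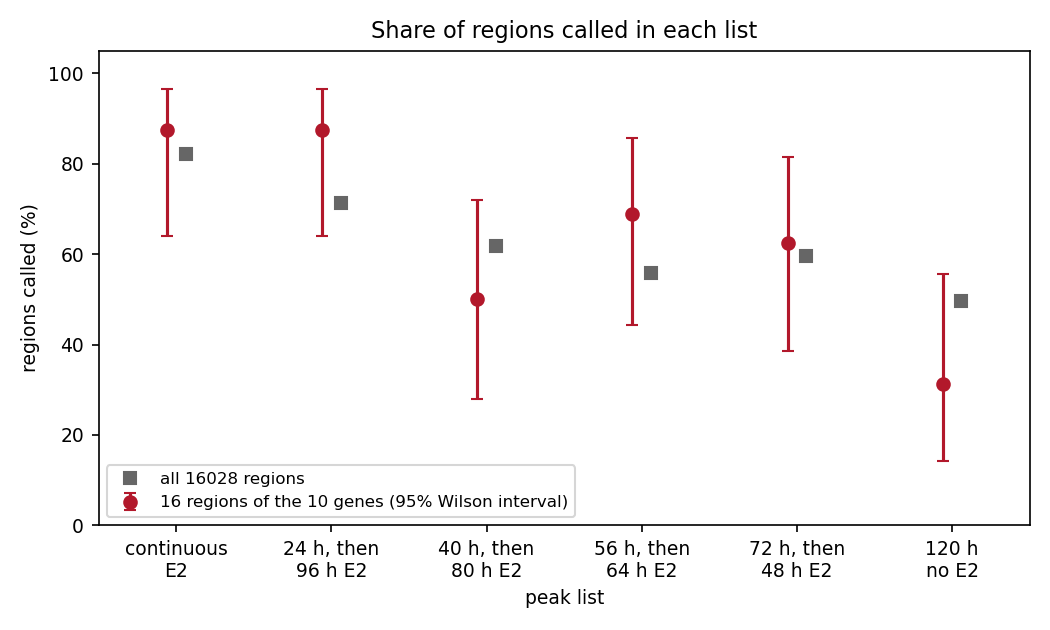
Percentage of the 16 member regions called in each list (red, with 95% Wilson intervals) beside that of all 16028 regions (grey squares). The members are lowest at 120 h (5 of 16) and at 40 h (8 of 16), and every grey square lies within the interval of the members.

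The 9 lost regions were not all missing from the same lists. At 24 h 8 of them were called, at 40 h 3, at 56 h 4 and at 72 h 4, against 63.2%, 42.5%, 27.0% and 26.9% of all lost regions. The exception at 24 h was the inner Tcf4 region. Of the 9, 6 switched off once along the order of withdrawal (66.7%, interval 35.4 to 87.9), against 84.2% of all lost regions. The 3 called again past a gap in that order were the first Tal1 region, the inner Lmo2 region and that of Tcf3. Regions called at 24 and 56 h but missing at 40 h were 3 of the 16 (18.8%, interval 6.59 to 43.0), against 3.59% of all regions. They were those at the starts of Lyl1 and Tcf3 and the first Tal1 region. The Tal1 peaks of 24 and 56 h overlapped neither Tal1 promoter window. This pattern was picked out after the values were seen, and no replicate list shows whether the gap at 40 h recurs.

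The lost member regions varied in width. Their width in continuous E2 was 691 to 1585 bases with a median of 1245, against a median of 720 over all lost regions, and that of the 5 kept members was 483 to 2731 with a median of 1046, against 935. Both Tal1 regions and the inner Lmo2 region were wider than 91.5% to 94.9% of continuous-E2 regions, while the Tcf12 region, at 812 bases, was wider than 46.7% and the downstream Lmo4 region, at 691 bases, than 32.3%. Over all 16 regions the bases called fell from 17509 in continuous E2 to 15376, 8550, 7914, 6651 and 4238, so that 24.2% were left at 120 h. Over all regions 42.0% were left. The member total at 120 h came from 5 regions, with most bases at Ldb1 (1963) and Hhex (1333), whose widths were merged from overlapping rows. This difference has no interval and was not tested.

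The RefSeq windows of the members were overlapped by a peak in 9 of 16 cases in continuous E2, then 8, 4, 8, 6 and 4, against 35.8%, 35.1%, 33.7%, 32.6%, 33.7% and 28.4% of the 21263 windows of protein-coding genes. Windows overlapped in all 6 lists were 3, at Ldb1 with 2 and Hhex with 1. Neighbouring windows of Lmo4 overlap each other and are not separate measurements. An E-box was found in 10 of the 16 windows, against 69.0% of all windows. A GATA site was found in 2, the upstream Tal1 window and the most downstream Ldb1 window, against 22.5% of all windows, and peaks of no list overlapped either of these. A longer GATA motif, with A or T in front and A or G at the end, was searched first and replaced by GATAA after its result was seen; it was in the same 2 windows and in 26.0% of all windows. An ETS site was found in 2, those of Lyl1 and Tcf3, against 11.6%. These are letter matches in short windows, and they say nothing of binding.

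Around the 10 genes, 20 further regions lay within 50 kb of a member gene but were assigned to another gene. Of these, 6 were lost, 6 kept, 6 gained and 2 at neither end point. Thus 6 of the 12 called in continuous E2 were lost, against 50.6% of all regions, and 6 of the 12 called at 120 h were gained, against 18.4%. These regions share a few neighbourhoods, and nothing is read from their counts. The gained ones included 3 around Lyl1: 2 at Ier2, an immediate-early gene, and 1 inside Nfix, which encodes a nuclear factor I protein, 2218 bases past the end of Lyl1. That Nfix region was called over 879 bases at 72 h and 861 at 120 h alone. On the other side of Lyl1, a region 1025 bases upstream and 125 bases from Trmt1 was called over 466 bases in continuous E2, 378 at 24 h, 285 at 40 h and 266 at 56 h, and was lost. Ier2 and Nfix each also had a lost region within 50 kb of Lyl1, called over 714 and 885 bases in continuous E2.

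Partner and regulator genes of these factors were given by a list of 36 genes, of which 29 had a region. Their 61 regions were 27 lost, 5 gained, 19 kept and 10 at neither end point, a lost share of 58.7% (interval 44.3 to 71.7) against 50.6% of all regions. Most lost regions lay at Meis1 with 5, Runx1 and the corepressor gene Cbfa2t3 with 3 each, and the ETS factor gene Fli1 and the LDB1-binding protein gene Ssbp2 with 2 each, as also at Erg and Hes1. Cbfa2t3, whose product works in TAL1 complexes in erythroid cells, had no region called at 120 h. The wider lost Fli1 region was called over 2096 bases in continuous E2 and in no other list, as was the other one over 890 bases.

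Gained regions of the partner list lay at Runx1, Sin3a, Id1, Zfpm1 and Gfi1b, with 1 each. Id1, an inhibitor that binds E proteins and keeps them from DNA, had a region called over 718 bases at 40 h, 472 at 56 h, 524 at 72 h and 578 at 120 h. Beside it, its other region was called in every list, over 1182 bases in continuous E2 and 657 at 120 h. Zfpm1, which encodes the GATA cofactor FOG, had a gained region called in every list but continuous E2, over 966 to 1061 bases and over 999 at 120 h. The gained region of Gfi1b, a repressor of erythroid and megakaryocyte cells, was called over 270 bases at 72 h and 422 at 120 h. Kept regions were most frequent at Runx1, Trim33 and Mef2c, with 2 each. No region was assigned to Gata1.

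**Figure D5:**
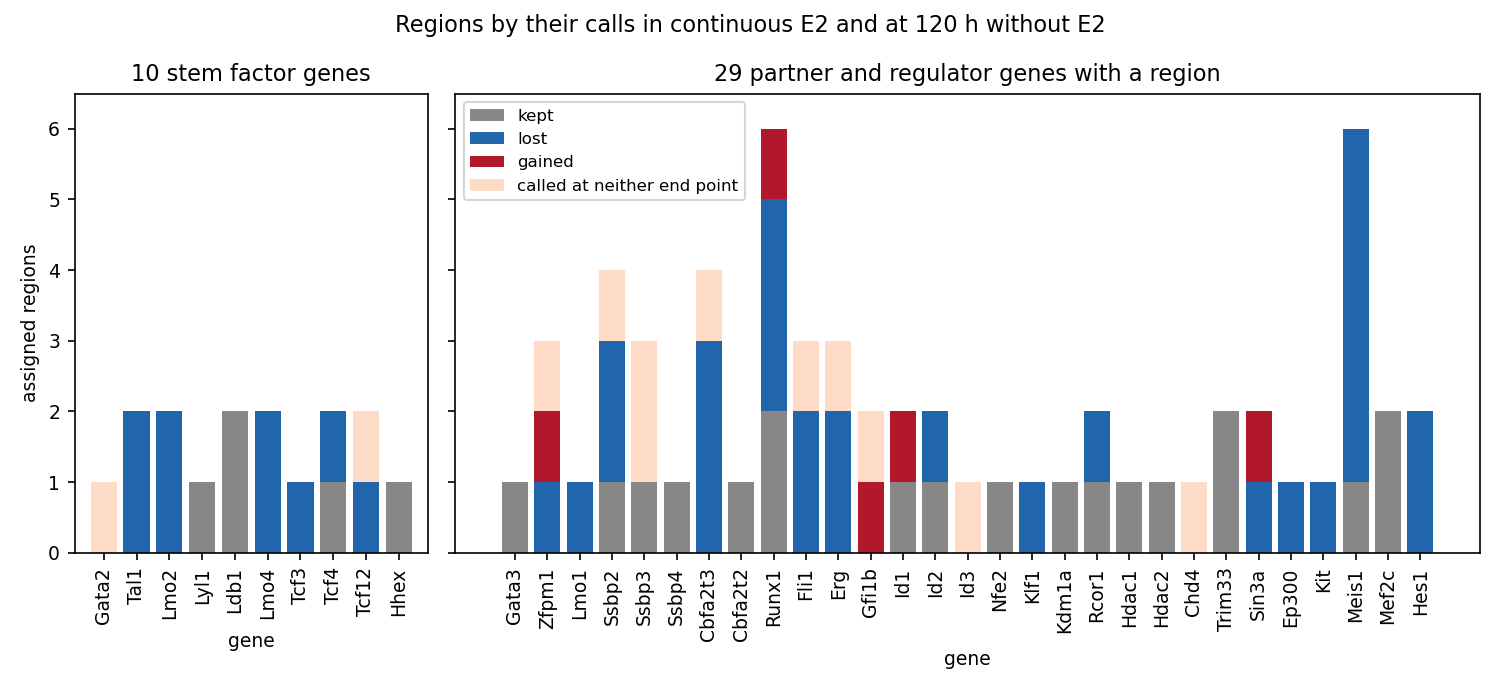
Regions assigned to each of the 10 stem factor genes (left) and to the 29 partner and regulator genes with a region (right), stacked by their calls in continuous E2 and at 120 h. Of the regions called at 120 h, 0 of 5 in the left panel and 5 of 24 in the right were gained, against 18.4% of all regions.

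Marker genes were used to check the cell type. Of 12 myeloid progenitor genes 10 had a region, with 17 regions called in continuous E2 and 6 at 120 h. Those 6 were 3 kept and 3 gained regions, where 18.4% of all regions called at 120 h were gained. Of 10 erythroid genes 3 had a region, of 8 megakaryocyte genes 2, of 9 mast cell and basophil genes 1 and of 8 lymphoid genes 2. These lists had 3, 1, 1 and 5 regions called in continuous E2 and 1, 0, 0 and 1 at 120 h, and their part in the member calls was not tested. All regions were likewise called less often at 120 h, in 49.7% against 82.1% in continuous E2, so fewer calls at 120 h were the direction of the whole list. The erythroid factor gene Klf1 had 1 lost region, and Itga2b, a megakaryocyte integrin gene, had 1 called in the 4 add-back lists alone, the pattern of Gata2.

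The number of called regions per list was also compared between genes. The counts of Gata2 (0, 1, 1, 1, 1 and 0) were shared by 66 other genes, and the 2 listed first by width, then by name, were 1810030O07Rik and Adamtsl5. Those of Tal1 (2, 2, 1, 1, 1 and 0) were shared by 35 genes, of which Ctdp1 and 4930453N24Rik were nearest in summed width in continuous E2. Those of Lmo2 (2, 2, 0, 0, 1 and 0) were shared by 3 genes, with Pdgfa and Gdf15 the nearest. The likeness rests on 6 lists and whole numbers only.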

How the data were processed

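ATAC-seq peak lists of 6 groups were used, 1 list for the 2 libraries of each group. Per peak, the authors deposited the chromosome and the start and end positions, with no score or other value, and how the authors combined libraries is not given in the sources used here. The submitters' processing notes name MACS2 2.0, BWA and STAR 2.5 without saying what each did, and mm9 as the build. The coordinates overlapped 28.4% to 35.8% of GRCm38 promoter windows, against 0.428% to 0.87% after a shift of 1 Mb, so GRCm38 was used.

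Exact duplicate rows and intervals over 10000 bases were dropped, overlapping rows were merged, and the lists were joined into union regions. A region counted as called where a list overlapped it by 1 base. Starts were taken as counted from 0 and are printed from 1. Regions went to the protein-coding gene they overlap or the nearest within 50 kb in the RefSeq gene table. No test between samples was possible with 1 list per group, so counts are given with 95% Wilson intervals beside those of all regions. Merging, classes and gene assignment were tested on simulated data, with exact repeats of rows and at most a lone gene in reach of each region. Rows of a list that overlap without being identical, and regions between competing genes, were not simulated. The members and gene lists were chosen with earlier results of these data known. The promoter motifs were chosen after the data were seen, and the GATA motif was shortened to GATAA after a longer one had been searched. All members are named. Of the partner list, the 5 genes leading in lost regions, the 5 leading in gained and the 3 leading in kept ones are named, ties by summed width. Erg and Hes1 are named besides, as tied in lost regions. Gata1 and Klf1, which are partner and erythroid genes, and the megakaryocyte marker gene Itga2b were named after their values were seen. Genes like Gata2, Tal1 and Lmo2 are those with the smallest summed difference in called regions over the 6 lists. The software was matplotlib 3.10.9, pandas 2.3.3, scipy 1.17.1 and numpy 2.4.6 under Python 3.11.15.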

Additional observations from a re-analysis of the deposited data

How the results depend on the processing

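No paired analysis was possible because the 2 libraries of a group share a single peak list, which also means that no library could be left out. Depth is unknown, so a missed weak peak and a closed region cannot be told apart. The lost share of 64.3% ranged from 57.7% to 78.6% under 10 settings and was 88.9% without chromosomes 18 and 19, where the background was 50.8%. The share over all regions moved as well: it was 59.3% where peaks had to cover at least 50% of a region (members 78.6%), 53.4% without peaks narrower than the median of their list (72.7%), 38.5% with lists of equal length (66.7%) and 73.8% without gene boundaries (75.0%). Leaving out chromosomes 18 and 19 left 1 kept region. Kept regions, 5 as reported, were 3 where peaks had to cover at least 50% of a region, 3 without peaks narrower than the median of their list and 2 without regions at gene boundaries. Gained regions, 0 as reported, were 1 without peaks narrower than the median and 1 with lists of equal length. Without regions at gene boundaries, 5 lost regions were called after 24 h and 1 after 72 h, since fewer regions are counted. Counting every region within 50 kb of a member gene, a setting chosen after seeing the data, gave 15 lost, 6 gained and 11 kept regions. Assignment to any gene of the table left 13 regions, because 3 lie nearer to a non-coding gene or pseudogene.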
